A study of Mus musculus with 6 samples.

Results

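The 34 genes described here are markers of microglia and other macrophages, followed in the brains of Kdm5c deficient and wild-type mice. They were taken by symbol from the deposited table, where each matched 1 of 43346 gene rows. The study sequenced brain RNA of 3 adult male Kdm5c deficient mice and 3 adult male wild-type littermates. All 6 were offspring of a C57BL/6 mother heterozygous for the Kdm5c deficiency and a wild-type 129 father, so each carries an equal mix of the C57BL/6 and 129 backgrounds. Kdm5c is an X-linked gene for a demethylase of lysine 4 of histone H3, and a deficient male has no other copy of it. The labels describe neither the allele nor the brain region dissected. The 34 genes were split by role into 12 homeostatic genes, 8 genes of activation and phagocytosis, 3 genes of complement C1q, 8 general myeloid genes, 2 transcription factors and 1 marker of macrophages at the brain's borders.

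Microglia are the resident macrophages of the brain. Their survival depends on the receptor Csf1r and its ligands Csf1 and Il34, and the transcription factors Spi1 (PU.1), Irf8 and Sall1 maintain their identity. At rest they express a homeostatic set of surface receptors and secreted proteins, and on contact with damage or debris they lower part of that set and raise lysosomal, lipid-handling and phagocytic genes through receptors that signal by the adaptor Tyrobp (DAP12). Because whole tissue was sequenced, more cells of a type and more RNA per cell cannot be told apart in any of the values below.

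The libraries held 21090278, 24178704 and 21945675 counts in the deficient mice and 24555412, 20221675 and 22956590 counts in the wild-type mice. Levels are given as CPM, read counts divided by the scaled library total in units that make libraries comparable. Kdm5c itself had 73.9, 65.5 and 78.9 CPM in deficient mice and 77.6, 82.8 and 84.01 CPM in wild-type mice, and the ranges overlapped (log2 fold change -0.16 ± 0.07, SE; adjusted p = 0.196, edgeR's quasi-likelihood test, adjusted by Benjamini-Hochberg). The counts cover the whole gene and say nothing of an altered exon, so the genotype labels are not checked by it. Deficient mouse 2 stood apart in region-specific RNA: 10 markers of cerebellar cells summed to 1298, 160 and 963 CPM in deficient mice 1 to 3 and to 1432, 1511 and 1640 CPM in wild-type mice 1 to 3. The main counts below are therefore also given without that mouse. Deficient mice 1 and 3 were also below every wild-type mouse in the cerebellar sum.

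All 34 genes had reads in all 6 mice, so RNA of microglia and macrophages was present in the tissue. Relative to exon length, the most abundant was Ctss, the lysosomal protease cathepsin S, at 31.3 CPM per kb averaged over the 6 mice. It was followed by C1qb and C1qa, which encode chains of the C1q molecule that starts the classical complement cascade, at 21.7 and 21.6 CPM per kb, and by Csf1r at 14.6 CPM per kb. The fractalkine receptor Cx3cr1 had 9.01 CPM per kb, and Tmem119, a membrane protein used to tell microglia from other macrophages, 7.52 CPM per kb. At the low end were P2ry12, Ptprc, Gpr34, Irf8 and P2ry13, at 0.307, 0.193, 0.191, 0.123 and 0.0696 CPM per kb. The length counts every annotated exon, which lowers genes with long alternative exons. It was 18313 bases for Ptprc, whose longest transcript has 5740, and 7055 for Irf8, whose longest has 3469.

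**Figure D1:**
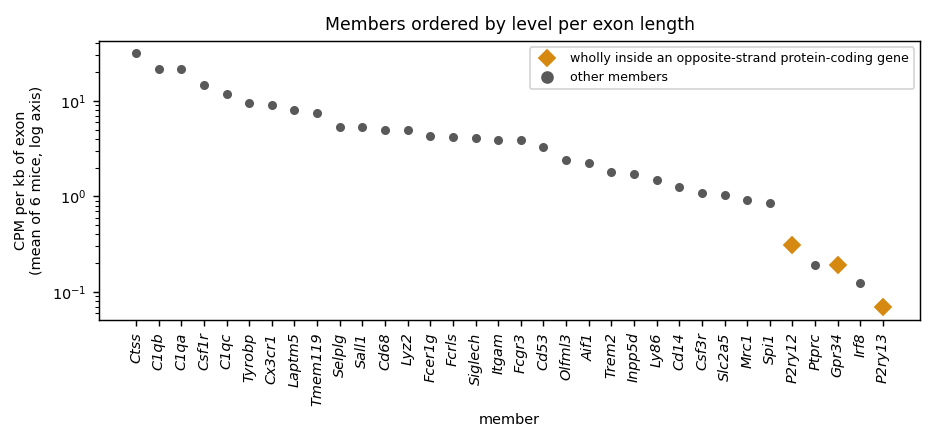
Level of each of the 34 genes per kb of annotated exon (vertical log axis, CPM per kb, mean of 6 mice), ordered from high to low. Diamonds mark genes that lie wholly inside a protein-coding gene on the opposite strand; these 3 are among the 5 lowest, from 0.307 to 0.0696 CPM per kb.

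The low place of the purinergic receptor P2ry12, a widely used homeostatic marker, stands beside a feature of the annotation. P2ry12 and its relative P2ry13, both receptors for ADP, lie wholly inside the gene Med12l on the other strand, and Gpr34, a receptor for lysophosphatidylserine, lies wholly inside Cask on the other strand. Exons of Med12l cover only 9 bases of the exons of P2ry12 (0.4% of their length), and no exon overlap was found for P2ry13 or Gpr34. Summed over the 6 mice, P2ry12 had 106 reads, P2ry13 had 24 and Gpr34 had 54, while Med12l had 6769 and Cask 14778. P2ry14 and Gpr171, also inside Med12l, had 5 and 0 reads, and Gpr82, inside Cask, had 0. Across the table, 42.9% of the 499 protein-coding genes inside an opposite-strand protein-coding gene had no read in any mouse, against 17.1% of the 20910 other protein-coding genes. The part of this position in the low levels was not tested, and the use of strand in counting is not given in the sources used here. P2ry13 and Gpr34, with 1 to 14 reads per mouse, did not pass the expression filter, which left 32 of the 34 genes for testing.

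**Figure D2:**
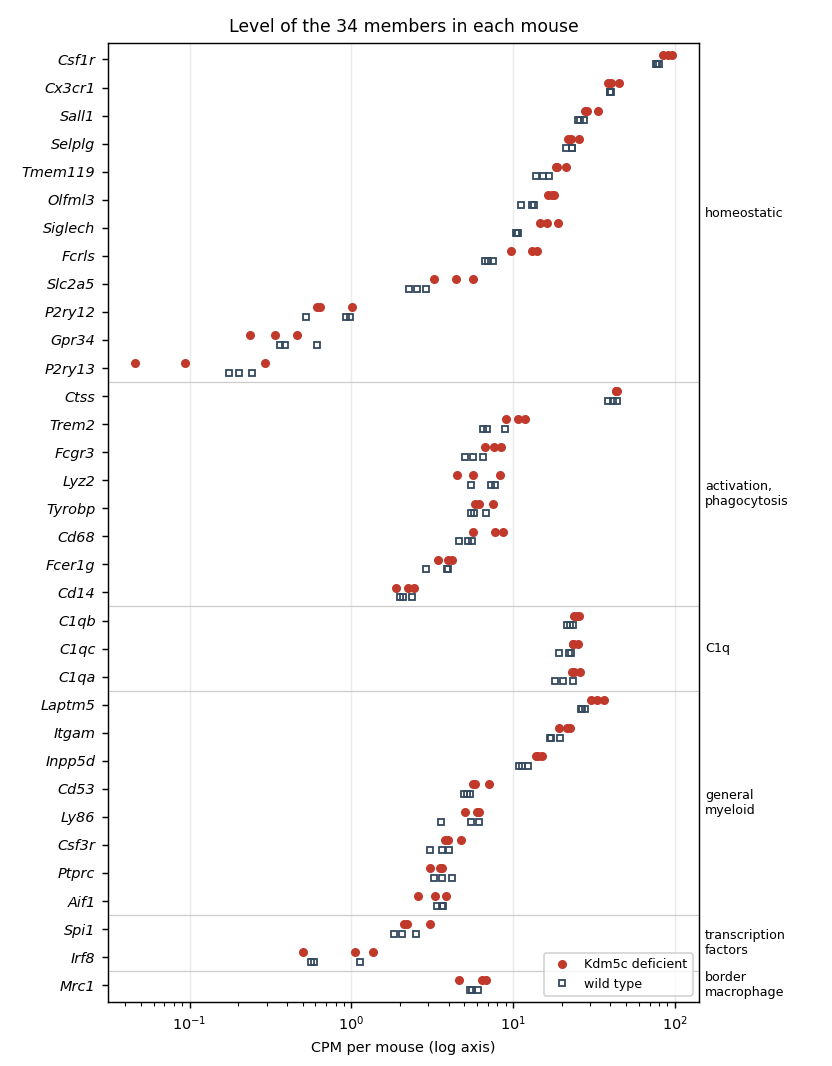
CPM of the 34 genes in each mouse (horizontal log axis), by role, with filled circles for the 3 Kdm5c deficient mice and open squares for the 3 wild-type mice. For Siglech, Fcrls, Olfml3, Slc2a5, Tmem119 and Csf1r every circle lies right of every square, while for Cx3cr1, Selplg, Lyz2 and Aif1 the genotypes overlap.

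Siglech, Fcrls and Olfml3, all homeostatic genes, rose in deficient brain, and no member of any role fell. At an adjusted p under 0.05, Siglech, Fcrls and Olfml3 were higher, 3 of 32 tested (9.38%), where 2.45% of all 15127 tested genes were higher and 2.48% lower (4.93% in either direction). DESeq2 called 8 of the 32 higher, the same 3 with Csf1r, Laptm5, Slc2a5, Tmem119 and Trem2, beside 3.97% of all tested genes, and limma-voom called the same 3, beside 2.26%; neither called a member lower. Without deficient mouse 2, 4 of 33 tested were higher, these 3 and Trem2, beside 2.35% of all tested genes. Leaving out deficient mouse 1 gave 10 higher, beside 7.16% of all tested genes, and leaving out deficient mouse 3 or any 1 wild-type mouse gave 0, beside 0.585% without deficient mouse 3 and 0.249%, 0.307% and 0.373% when wild-type mice 1, 2 and 3 were omitted in turn, so the calls moved over the whole table. Differences were mostly small and positive: 28 of 32 log2 fold changes were above 0, as were 50.3% of those of all tested genes. The median was 0.21, beside 0.00 for all tested genes. It was 0.20 over the 29 tested genes other than those 3, of which 25 were positive.

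Siglech encodes a sialic acid-binding lectin receptor of mouse microglia that signals through Tyrobp. Its gene (chromosome 7, 55768178 to 55778925, plus strand, GRCm38) had 14.7, 19.1 and 16.3 CPM in deficient mice, against 10.4, 10.8 and 10.6 CPM in wild-type mice. Every deficient mouse was above every wild-type mouse, and deficient mouse 2 was the highest. The level was 16.7 ± 2.22 CPM in deficient and 10.6 ± 0.183 CPM in wild-type mice (SD, n = 3 each), a 1.58-fold difference (log2 fold change 0.66 ± 0.10, SE; adjusted p = 0.0193, edgeR with Benjamini-Hochberg adjustment).

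Fcrls, an Fc receptor-like gene that in mice marks microglia, differed by a similar amount. Its gene (chromosome 3, 87250758 to 87263738, minus strand) had 9.78, 13.2 and 14.0 CPM in deficient mice, against 7.49, 6.75 and 6.997 CPM in wild-type mice. The genotypes did not overlap, although deficient mouse 1 stood closer to the wild-type mice than the others. The level was 12.3 ± 2.24 CPM in deficient and 7.08 ± 0.375 CPM in wild-type mice (SD, n = 3 each), 1.74-fold (log2 fold change 0.80 ± 0.14, SE; adjusted p = 0.0228, edgeR with Benjamini-Hochberg adjustment).

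Olfml3 encodes a secreted olfactomedin-like glycoprotein. Its gene (chromosome 3, 103722222 to 103738001, minus strand) had 16.4, 17.3 and 17.9 CPM in deficient mice, against 13.5, 11.2 and 13.03 CPM in wild-type mice. Again all deficient mice were above all wild-type mice, and here the deficient mice lay close together. The level was 17.2 ± 0.785 CPM in deficient and 12.6 ± 1.205 CPM in wild-type mice (SD, n = 3 each), 1.37-fold (log2 fold change 0.45 ± 0.09, SE; adjusted p = 0.0323, edgeR with Benjamini-Hochberg adjustment).

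Each of these calls was lost when deficient mouse 3 or any wild-type mouse was left out. With edgeR and Benjamini-Hochberg adjustment, leaving out deficient mouse 3 gave Siglech an adjusted p of 0.0511, and leaving out wild-type mice 1, 2 and 3 in turn gave 0.0925, 0.0952 and 0.0698. That of Fcrls was 0.0618, 0.0925, 0.111 and 0.0808 in the same 4 fits, and that of Olfml3 was 0.0910, 0.0931, 0.122 and 0.0879. Without deficient mouse 1 or 2 all 3 genes passed, and their log2 fold changes over the 6 fits stayed between 0.55 and 0.74 for Siglech, 0.70 and 0.94 for Fcrls, and 0.38 and 0.51 for Olfml3. In the authors' deposited table the unadjusted p-values were 1.01e-06 for Siglech, 1.32e-06 for Fcrls and 0.000241 for Olfml3, and the log2 fold changes, there given as wild type over deficient, were -0.54, -0.60 and -0.38. Those values come from the authors' own fit and were smaller in size than the 0.66, 0.80 and 0.45 of edgeR here. The reason was not tested.

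The DNA before the RefSeq start of these 3 genes is shown because they moved together, with that of C1qb, which did not pass, for comparison. Capitals mark the motif GAGGAA, the core of the site bound by PU.1, the factor encoded by Spi1. Sequences are from RefSeq on GRCm38.p6, read 5′ to 3′ on the gene's strand, within the 250 bases before the start that RefSeq gives and outside annotated exons. That start is not always the end of the gene as GENCODE gives it: for Fcrls it is base 87263524, so the stretch shown lies inside the wider GENCODE gene. They span chr7:55767934-55768177 (plus strand) for Siglech, chr3:87263600-87263677 (minus strand) for Fcrls, chr3:103738002-103738251 (minus strand) for Olfml3 and chr4:136886201-136886450 (minus strand) for C1qb.
Siglech: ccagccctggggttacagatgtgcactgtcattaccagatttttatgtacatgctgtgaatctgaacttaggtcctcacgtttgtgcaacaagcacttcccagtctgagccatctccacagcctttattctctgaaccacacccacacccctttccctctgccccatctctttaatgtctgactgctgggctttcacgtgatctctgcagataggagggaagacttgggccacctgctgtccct
Fcrls: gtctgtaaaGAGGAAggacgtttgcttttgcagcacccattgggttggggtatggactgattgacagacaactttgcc
Olfml3: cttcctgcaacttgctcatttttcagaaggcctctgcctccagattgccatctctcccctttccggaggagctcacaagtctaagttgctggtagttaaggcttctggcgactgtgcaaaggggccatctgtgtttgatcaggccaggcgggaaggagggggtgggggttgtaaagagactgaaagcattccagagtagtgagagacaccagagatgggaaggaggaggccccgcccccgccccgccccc
C1qb: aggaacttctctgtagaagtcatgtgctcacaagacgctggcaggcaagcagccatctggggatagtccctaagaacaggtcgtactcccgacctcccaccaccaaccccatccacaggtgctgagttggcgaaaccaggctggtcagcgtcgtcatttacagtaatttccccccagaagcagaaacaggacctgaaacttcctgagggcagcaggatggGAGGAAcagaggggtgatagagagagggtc

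The stretches of Fcrls and C1qb each held 1 GAGGAA, and those of Siglech and Olfml3 held none. RefSeq gave an upstream region for 26 of the 34 genes, and 16 of these (61.5%) held GAGGAA on either strand in the 250 bases before the start, as did 6252 of 27025 regions of all genes (23.1%). The 16 included Trem2, Cd68, Laptm5, Itgam and Ptprc as well as Fcrls and C1qb, so the motif was present both in genes that passed the test and in genes that did not. A match is a run of letters and not a measured binding site.

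**Figure D3:**
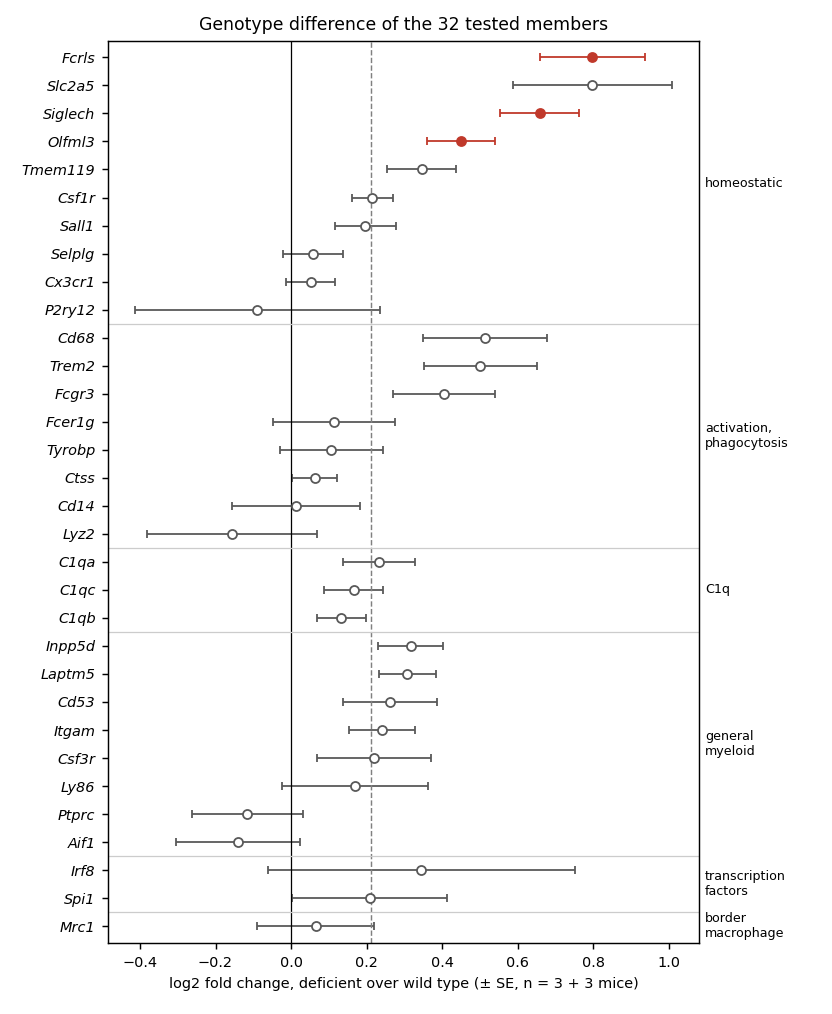
Log2 fold change, deficient over wild type, of the 32 tested genes by role (points, with bars for ± SE from 3 deficient and 3 wild-type mice). Filled red points passed an adjusted p under 0.05, the solid line marks 0 and the dashed line the median of 0.21; the points that passed are all homeostatic genes.

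Of the other homeostatic genes, Csf1r, Tmem119, Slc2a5 and Sall1 had higher values in every deficient mouse than in every wild-type mouse, without passing the test. Csf1r, the receptor that microglia need to survive, had 85.0, 96.1 and 90.6 CPM in deficient mice and 80.1, 76.7 and 77.4 CPM in wild-type mice, a log2 fold change of 0.22 ± 0.05 (SE) that missed the threshold at an adjusted p of 0.0594 (edgeR, Benjamini-Hochberg). Exons of Hmgxb3 on the other strand cover 15.1% of its exon length. Tmem119 had 18.6, 21.2 and 18.7 CPM in deficient mice and 15.4, 13.8 and 16.8 CPM in wild-type mice (log2 fold change 0.35 ± 0.09, SE; adjusted p = 0.0664 by edgeR). The groups did not overlap for Csf1r or for Tmem119. Slc2a5, a fructose transporter, was low but showed as large a difference as Fcrls, with 3.24, 5.62 and 4.47 CPM in deficient mice and 2.55, 2.89 and 2.27 CPM in wild-type mice (log2 fold change 0.80 ± 0.21, SE; adjusted p = 0.0652 by edgeR). Its deficient mice differed more among themselves than its wild-type mice. Sall1, a zinc finger factor that in the adult brain is found in microglia, had 28.8, 27.9 and 33.6 CPM in deficient mice and 26.0, 25.2 and 27.5 CPM in wild-type mice (log2 fold change 0.20 ± 0.08, SE; adjusted p = 0.178 by edgeR). These groups did not overlap, but the gap between them was small.

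Cx3cr1 and Selplg, the ligand of P-selectin, showed no such separation. Cx3cr1 had 38.5, 45.1 and 40.4 CPM in deficient mice and 40.4, 39.8 and 39.5 CPM in wild-type mice. Its log2 fold change was 0.05 ± 0.07 (SE), with deficient mouse 2 above the wild-type range, deficient mouse 3 level with wild-type mouse 1 and deficient mouse 1 below the range. Selplg had 21.7, 25.7 and 22.7 CPM in deficient mice and 23.2, 21.2 and 23.0 CPM in wild-type mice, with a log2 fold change of 0.06 ± 0.08 (SE) and overlapping groups. P2ry12 had 13, 24 and 14 reads in deficient mice, against 23, 20 and 12 reads in wild-type mice. The SE of its log2 fold change, 0.32, is the widest of the 10 tested homeostatic genes, so only a large difference was detectable at this depth. Of the 10, 7 had every deficient mouse above every wild-type mouse, a separation seen in 14.9% of all tested genes, and their median log2 fold change was 0.28. Without deficient mouse 2 the median over 11 tested homeostatic genes was 0.25.

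Of the 8 genes of activation and phagocytosis, none passed in either direction by edgeR or limma-voom, 1, Trem2, was called higher by DESeq2, and 3 had an unadjusted p under 0.05, all with positive log2 fold changes, beside 12.1% of all tested genes. Trem2, the lipid receptor that signals through Tyrobp and switches microglia toward phagocytosis, had 11.9, 9.06 and 10.7 CPM in deficient mice and 8.91, 6.90 and 6.52 CPM in wild-type mice (log2 fold change 0.50 ± 0.15, SE; adjusted p = 0.0872 by edgeR). The groups were separate by a narrow margin, since deficient mouse 2 lay just above wild-type mouse 1, and without deficient mouse 2 the gene was called (adjusted p = 0.0418 by edgeR). Cd68, a lysosomal membrane protein, had 5.69, 8.69 and 7.69 CPM in deficient mice and 5.26, 4.65 and 5.55 CPM in wild-type mice (log2 fold change 0.51 ± 0.16, SE). Fcgr3, a low-affinity receptor for IgG, had 6.72, 7.68 and 8.43 CPM in deficient mice and 6.56, 5.63 and 5.03 CPM in wild-type mice (log2 fold change 0.40 ± 0.14, SE). In both, deficient mouse 1 stood barely above the highest wild-type mouse, and the adjusted p was 0.102 for Cd68 and 0.114 for Fcgr3 by edgeR.

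The other 5 overlapped between genotypes. Ctss had 43.9, 43.1 and 43.3 CPM in deficient mice and 44.2, 41.7 and 38.7 CPM in wild-type mice, with a log2 fold change of 0.06 ± 0.06 (SE), the smallest SE in this group. Tyrobp and Fcer1g, the adaptors through which Trem2, Siglech and Fc receptors signal, each had a log2 fold change of 0.11, with SEs of 0.14 and 0.16. Cd14, the co-receptor for bacterial lipopolysaccharide, had 0.01 ± 0.17 (SE). Lyz2, macrophage lysozyme, had 8.32, 4.49 and 5.66 CPM in deficient mice and 7.29, 7.78 and 5.47 CPM in wild-type mice (log2 fold change -0.16 ± 0.22, SE), and its near-identical copy Lyz1 makes its reads uncertain. The median log2 fold change of these 8 genes was 0.11. That 3 homeostatic genes passed and no activation gene did is a pair of counts, and the difference between the groups was not tested.

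**Figure D4:**
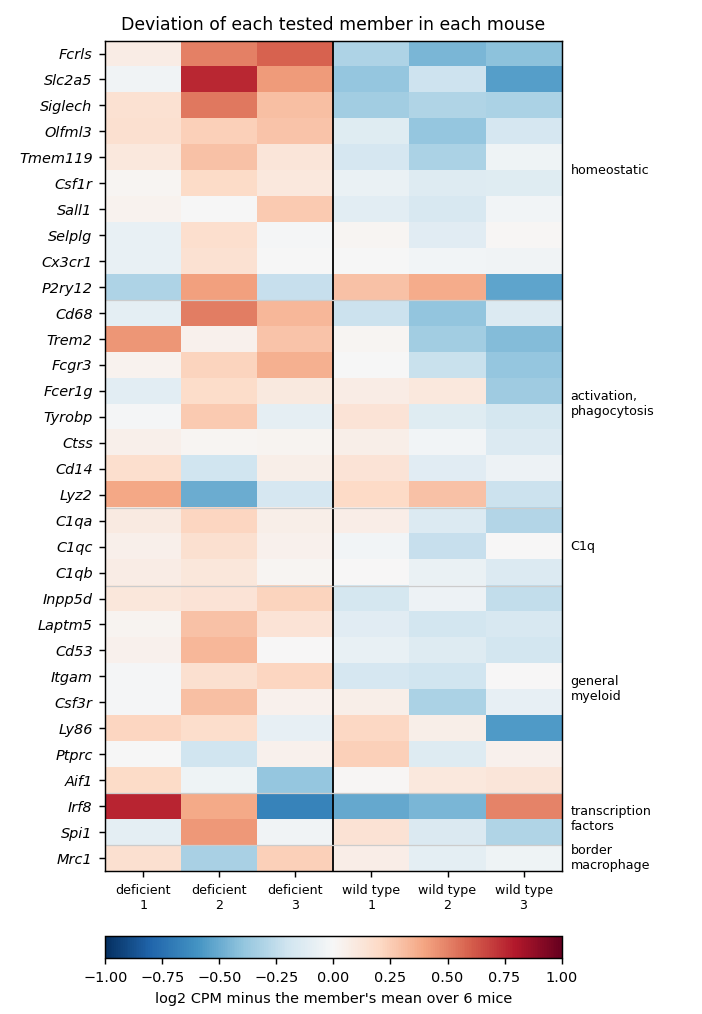
Deviation of each tested gene in each mouse from that gene's mean over the 6 mice, as log2 CPM (colour scale, red above and blue below), with deficient mice in the left columns and wild-type mice in the right columns. Red prevails in the deficient columns of the homeostatic rows down to Sall1, and deficient mouse 2 is highest for 17 of the 32 genes.

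The 3 chains of C1q showed small differences. C1qa had 23.7, 25.8 and 23.2 CPM in deficient mice and 23.4, 20.3 and 18.2 CPM in wild-type mice, with overlap (log2 fold change 0.23 ± 0.10, SE). C1qb had 24.8, 25.5 and 23.8 CPM in deficient mice and 23.6, 22.6 and 21.4 CPM in wild-type mice, and C1qc had 23.5, 25.3 and 23.4 CPM in deficient mice and 22.2, 19.3 and 22.7 CPM in wild-type mice. For C1qb and C1qc the deficient mice were all above the wild-type mice by small gaps, at log2 fold changes of 0.13 ± 0.06 and 0.17 ± 0.08 (SE), and the adjusted p of the 3 chains ran from 0.179 to 0.241 by edgeR. C1qa had an unadjusted p under 0.05, and DESeq2 and limma-voom called 0 of the 3.

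Among the 8 general myeloid genes none passed by edgeR or limma-voom, DESeq2 called Laptm5 higher (beside 3.97% of all tested genes), and 3 had an unadjusted p under 0.05 with a positive log2 fold change (beside 12.1%). Laptm5, a lysosomal protein of blood-lineage cells, had 30.4, 36.6 and 32.8 CPM in deficient mice and 27.7, 26.4 and 26.7 CPM in wild-type mice (log2 fold change 0.31 ± 0.08, SE; adjusted p = 0.0538 by edgeR). Inpp5d, the lipid phosphatase SHIP1 that restrains signalling downstream of Tyrobp, had 13.9, 14.2 and 15.01 CPM in deficient mice and 11.4, 12.4 and 10.8 CPM in wild-type mice (log2 fold change 0.32 ± 0.08, SE; adjusted p = 0.0681 by edgeR). Both were separate between genotypes, as was the tetraspanin gene Cd53 with a log2 fold change of 0.26 ± 0.12 (SE). Itgam, the integrin chain CD11b, had 19.2, 21.6 and 22.4 CPM in deficient mice and 17.2, 16.8 and 19.4 CPM in wild-type mice, with overlap (log2 fold change 0.24 ± 0.09, SE), and 68.7% of its exon length is shared with another annotated gene on the same strand. Csf3r, the receptor for granulocyte colony-stimulating factor, and Ly86, a partner of a Toll-like receptor relative, had log2 fold changes of 0.22 ± 0.15 and 0.17 ± 0.19 (SE). Aif1, which encodes the microglial stain Iba1, and Ptprc, the leukocyte phosphatase CD45, were on the other side of 0, at -0.14 ± 0.16 and -0.12 ± 0.15 (SE). All 4 overlapped between genotypes.

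The transcription factors of the lineage were low and variable. Spi1 had 2.12, 3.06 and 2.21 CPM in deficient mice and 2.51, 2.06 and 1.84 CPM in wild-type mice (log2 fold change 0.21 ± 0.20, SE). Irf8 had 1.36, 1.05 and 0.506 CPM in deficient mice and 0.567, 0.587 and 1.14 CPM in wild-type mice (log2 fold change 0.35 ± 0.41, SE), the widest error of the 32 tested genes. Mrc1, the mannose receptor of macrophages at vessels and meninges, had 6.44, 4.62 and 6.81 CPM in deficient mice and 6.03, 5.38 and 5.60 CPM in wild-type mice (log2 fold change 0.07 ± 0.16, SE). None of these 3 separated the genotypes, and 0 were called by edgeR, DESeq2 or limma-voom or had an unadjusted p under 0.05.

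Counted over roles, 14 of the 32 tested genes (43.8%) had an unadjusted p under 0.05 with a positive log2 fold change and 0 with a negative one, beside 12.1% and 12.8% of all tested genes. In 15 of 32 (46.9%) every deficient mouse was above every wild-type mouse, beside 14.9% of all tested genes, and in 0 of 32 every deficient mouse was below, beside 16.0%. Without deficient mouse 2 these became 13 of 33 (39.4%) beside 10.1% for the unadjusted p, and 16 of 33 (48.5%) beside 18.9% for separation. Genes expressed by the same cells vary together, so these counts are not independent observations. Deficient mouse 2 was highest for 17 of the 32, deficient mice 3 and 1 for 7 and 6, and wild-type mouse 1 for 2. The lowest value was that of wild-type mouse 3 for 13 genes and of wild-type mouse 2 for 11.

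**Figure D5:**
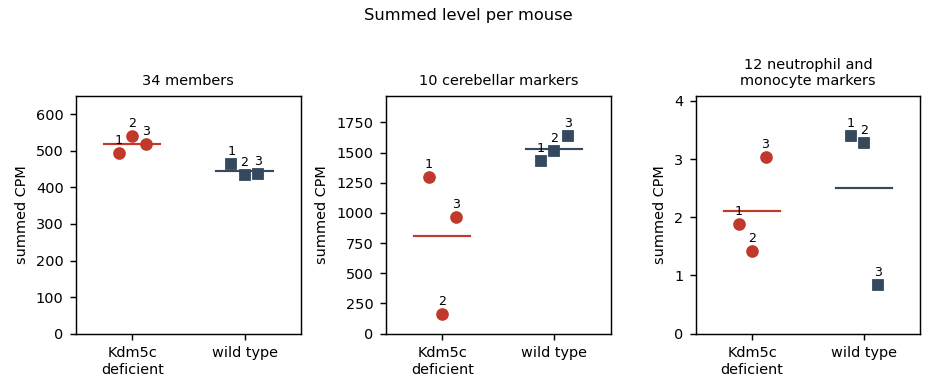
Summed CPM per mouse (vertical axes starting at 0) of the 34 genes, of 10 cerebellar markers and of 12 markers of blood neutrophils and monocytes, with deficient mice left of wild-type mice, numbers naming the mouse and bars at the group means. The 34 genes sum to 495, 541 and 519 CPM in deficient mice and 463, 435 and 438 CPM in wild-type mice; deficient mouse 2, lowest in cerebellar markers at 160 CPM, is highest in the 34 genes.

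The summed level of the 34 genes was 518 ± 23.3 CPM in deficient mice and 445 ± 15.8 CPM in wild-type mice (SD, n = 3 each), a ratio of 1.16, and 1.14 without deficient mouse 2. By role, the ratio of sums, deficient over wild type, was 1.19 for homeostatic genes, 1.12 for activation and phagocytosis, 1.13 for C1q and 1.18 for general myeloid genes. Homeostatic genes summed to 238, 273 and 260 CPM in deficient mice and 220, 210 and 218 CPM in wild-type mice. Activation genes summed to 88.6, 86.6 and 87.8 CPM in deficient mice and 85.3, 78.4 and 71.8 CPM in wild-type mice. Both sums were higher in every deficient mouse than in every wild-type mouse.

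Markers of other cells moved beside these values, and their part in them was not tested. All 10 cerebellar markers had negative log2 fold changes. For 8 of the 10 every deficient mouse was below every wild-type mouse, beside 16.0% of all tested genes. With all mice included, none was called by edgeR, DESeq2 or limma-voom (1 at an unadjusted p under 0.05). Their sum was lowest in deficient mouse 2. With that mouse left out, 0 of the 10 log2 fold changes were positive. In 8 of the 10 the remaining deficient mice were still below every wild-type mouse, beside 2925 of 15287 tested genes. The ratio of sums, deficient over wild type, was then 0.74, and edgeR called 2 markers lower, Zic1 and Car8, beside 324 of 15287 tested genes. Of 12 markers of blood neutrophils and monocytes 2 were tested, S100a9 and Ccr2, with neither called. The 12 markers summed to 1.43 to 3.04 CPM in deficient mice and 0.831 to 3.4002 CPM in wild-type mice. Per mouse, S100a8 had 4 to 19 reads, S100a9 had 0 to 20 and Ngp had 1 to 9, while Elane and Retnlg had at most 2. Lymphocyte markers summed to between 6.91 and 10.2 CPM in deficient mice and 9.10 and 9.96 CPM in wild-type mice, with Ms4a1 at 0 in every mouse. Most of that sum was Cd4, at 4.75 to 8.10 CPM in deficient and 6.997 to 8.58 CPM in wild-type mice (-0.36 ± 0.19, SE). Without deficient mouse 2, Cd4 was called lower (adjusted p = 0.0462 by edgeR). The T cell gene Trac lay on the other side of 0 (0.99 ± 0.33, SE; adjusted p = 0.115 by edgeR). Red cell markers summed to between 63.3 and 74.2 CPM in deficient mice and 73.3 and 79.95 CPM in wild-type mice. The haemoglobin gene Hbb-bt, 1 of 5, fell (log2 fold change -0.62 ± 0.12, SE, adjusted p = 0.0266 by edgeR), beside 2.48% of all tested genes. Of 10 astrocyte markers 6 had positive and 4 had negative log2 fold changes, at a median of 0.11 and a lowest value of -0.23. The gap junction gene Gja1 rose (0.23 ± 0.05, SE), 1 of 10 beside 2.45% of all tested genes. At an unadjusted p under 0.05, 4 markers were higher (beside 12.1%), and 4 had every deficient mouse above every wild-type mouse (beside 14.9%). DESeq2 called 4 of the 10, Gja1, Gfap, Gjb6 and Slc1a2, all higher, beside 3.97% of all tested genes. The sum of the 10 lay between 5403 and 5801 CPM in deficient mice and 4967 and 5243 CPM in wild-type mice. The 10 oligodendrocyte markers summed to between 5997 and 7555 CPM in deficient mice and 7592 and 8592 CPM in wild-type mice. Of 10 endothelial and 10 neuron markers edgeR called 0, while DESeq2 called 1 neuron marker higher and 0 endothelial markers. At an unadjusted p under 0.05, 4 endothelial markers were higher and 1 neuron marker lay in each direction. Over all tested genes 12.1% were higher and 12.8% lower at that p.

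Further genes of microglia were read from lists of the same kind. Of 22 other homeostatic genes 21 were tested, 3 rose and none fell (14.3% higher, beside 2.45% of all tested genes), at a median log2 fold change of 0.06. The signs were mixed, with 12 positive and 9 negative. DESeq2 called 4 higher, the 3 and Mertk, and 0 lower, beside 3.97% of all tested genes higher. At an unadjusted p under 0.05, where 12.1% of all tested genes were higher and 12.8% lower, 8 were higher and 2 lower. The 2 were Tgfbr1, a receptor for TGF-beta (-0.24 ± 0.07, SE; adjusted p = 0.0695 by edgeR), and the lectin receptor gene Cd33 (-0.49 ± 0.18, SE; adjusted p = 0.144 by edgeR), both with every deficient mouse below every wild-type mouse and both singled out after their values were seen. Crybb1, a crystallin gene expressed by microglia, changed most: it had 5.83, 6.09 and 5.34 CPM in deficient mice, against 1.90, 1.27 and 1.53 CPM in wild-type mice. The groups were far apart, 3.63-fold (log2 fold change 1.86 ± 0.16, SE; adjusted p = 0.00138, edgeR with Benjamini-Hochberg adjustment), and it passed in all 6 fits that left out 1 mouse. Cst3, the protease inhibitor cystatin C, which is also abundant in other brain cells, had 811, 881 and 784 CPM in deficient mice and 637, 649 and 615 CPM in wild-type mice (log2 fold change 0.38 ± 0.05, SE). Rnase4, a secreted ribonuclease, had 15.2, 17.9 and 16.5 CPM in deficient mice and 11.7, 11.9 and 10.5 CPM in wild-type mice (log2 fold change 0.54 ± 0.09, SE), and 13.4% of its exon length is shared with Ang on the same strand. Both were separate between genotypes.

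Of 24 genes known to rise in disease-associated microglia, 17 were tested, at a median of 0.06. By edgeR 2 were higher (11.8%, beside 2.45% of all tested genes) and 1 was lower (5.88%, beside 2.48%). Apoe, the main lipid carrier of the brain and also an astrocyte gene, had 1595, 1509.95 and 1638 CPM in deficient mice and 1359, 1148 and 1297 CPM in wild-type mice (log2 fold change 0.32 ± 0.07, SE; adjusted p = 0.0359 by edgeR). Ctsz, a lysosomal protease, had 45.8, 42.2 and 41.0 CPM in deficient mice and 31.7, 32.9 and 30.8 CPM in wild-type mice (0.43 ± 0.06, SE; adjusted p = 0.0144 by edgeR). Spp1, osteopontin, went the other way, with 31.4, 17.4 and 22.1 CPM in deficient mice and 40.7, 48.6 and 35.8 CPM in wild-type mice (-0.82 ± 0.19, SE; adjusted p = 0.0473 by edgeR). All 3 were separate between genotypes, and 18.8% of the exon length of Spp1 is shared with another annotated transcript on the same strand. Cst7 and Itgax, defining genes of that state, had 2 to 8 reads in every mouse and were not tested.

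Of 20 inflammatory genes 8 were tested and none passed by edgeR or limma-voom. At an unadjusted p under 0.05, where 12.1% of all tested genes were higher, 2 were higher and 0 lower. Those were Ptgs2, cyclooxygenase 2, which neurons also express (log2 fold change 0.49 ± 0.13, SE) and which DESeq2 called, and Casp1, the inflammasome protease, at 0.91 ± 0.28 (SE). The cytokine gene Il1b had 4 to 6 reads in each mouse, Tnf at most 3 and Cxcl2 0. Of 12 genes of macrophages at vessels and meninges, 10 were tested and none passed by edgeR, DESeq2 or limma-voom. At an unadjusted p under 0.05, where 12.1% of all tested genes were higher and 12.8% lower, 1 was higher and 2 were lower. Those with the smallest p were Stab1 (-0.37 ± 0.12, SE), Maf (-0.27 ± 0.09) and F13a1 (0.46 ± 0.18), the first a scavenger receptor, the next a transcription factor and the last a coagulation factor subunit. Their directions differed, and the list had a median of -0.05.

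The ligands that other brain cells offer to microglia included 2 that rose by edgeR. They were among 12 tested ligands and partners of microglial receptors (16.7%, beside 2.45% of all tested genes). Il34, the ligand of Csf1r made by neurons, had 39.4, 51.2 and 43.3 CPM in deficient mice and 34.002, 30.9 and 32.2 CPM in wild-type mice, without overlap (log2 fold change 0.46 ± 0.09, SE; adjusted p = 0.0333 by edgeR). Cd200, a neuronal ligand that restrains microglia, had 124, 147 and 128 CPM in deficient mice and 103, 105 and 110 CPM in wild-type mice, also without overlap (0.33 ± 0.07, SE; adjusted p = 0.0335 by edgeR). Deficient mouse 2 was the highest for both. Cx3cl1, the ligand of Cx3cr1, which was singled out after its values were seen, had 0.30 ± 0.08 (SE) and an adjusted p of 0.0795 by edgeR. DESeq2 called it higher (adjusted p = 0.0113), with Il34 and Cd200, 3 of 12 beside 3.97% of all tested genes. Of 10 tested genes of the complement pathway besides C1q, edgeR called 1 higher (10%, beside 2.45% of all tested genes). It was C4b, which C1q acts on through its proteases. C4b had 27.2, 21.8 and 22.7 CPM in deficient mice and 17.7, 18.8 and 15.2 CPM in wild-type mice (0.47 ± 0.11, SE, adjusted p = 0.0449 by edgeR). C3ar1, a receptor for the fragment C3a singled out after its values were seen, lay on the other side of 0 with every deficient mouse below every wild-type mouse (-0.92 ± 0.24, SE; adjusted p = 0.0645 by edgeR). DESeq2 also called C1ql3, a C1q-like gene, higher, and 61.0% of its exon length is shared with an annotated gene on the opposite strand.

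Of the called genes outside the 34, Rnase4, Apoe, Spp1, Il34, Cd200, C4b, Gja1 and Hbb-bt lost their calls without deficient mouse 3 or any 1 of the wild-type mice, and Cst3 and Ctsz without any 1 of the wild-type mice. The highest adjusted p over the 6 fits of edgeR was 0.0768 for Cst3 and Ctsz, 0.0925 for Rnase4, 0.119 for Apoe, 0.190 for Spp1, 0.148 for Il34, 0.147 for Cd200, 0.133 for C4b, 0.138 for Gja1 and 0.111 for Hbb-bt. Without deficient mouse 2, 4 of 21 other homeostatic genes were higher (Mertk joining the 3), and 2 of 18 disease-associated genes were higher and 1 lower. In that fit 2 of 8 inflammatory genes (Casp1 and Nfkbia), 2 of 12 ligands and partners and 2 of 10 complement genes (Serping1 joining C4b) were higher. Over all tested genes, 2.35% were then higher, 50.3% were positive and 18.9% had the remaining deficient mice above every wild-type mouse. Of 10 astrocyte markers, 3 were higher (Gfap, Gja1 and Gjb6), 9 positive and 6 separate in that way. Of 10 endothelial markers, 0 were called, 9 were positive and 6 separate. Of 10 neuron markers 8 were positive, of 10 oligodendrocyte markers 2, and 0 of either were separate in that way.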

How the data were processed

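RNA was measured by sequencing in brain of 6 mice. Per the labels' protocols, RNA came from a Qiagen RNeasy Mini kit and sequencing libraries from an Illumina TruSeq RNA kit. The submitters' processing notes name GRCm38 and DESeq2. The sources used here give no aligner, counter or use of strand. The deposited table holds raw counts per gene and mouse, per the file headers, which the authors did not normalize. The authors also deposited a mean signal, an SE, a test score, a log2 fold change and an unadjusted p-value per gene; the last pair is quoted where named, and all tests used the counts.

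The software was R 4.3.3, edgeR 4.0.16 and limma 3.58.1. The expression filter (minimum count 10, minimum total 15) left 15127 genes, which held 99.9% of each library. Scaling was by trimmed mean of M-values, genotype was the only factor in edgeR's quasi-likelihood test, and Benjamini-Hochberg adjustment ran over all 15127 genes at a threshold of 0.05. All adjusted p-values are from that test unless another tool is named. Totals of 20221675 to 24555412 counts give similar precision across mice. The median SE of the log2 fold change was 0.17 for the 9 tested members under 5 CPM, 0.14 for the 14 of 5 to 20 CPM and 0.08 for the 9 above. Between mice of one genotype the chi-square per gene was 3.55 to 17.6, so no library was a repeat of another. The fit was tested on simulated data.

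Positions, exon lengths and overlaps came from GENCODE M21 (GRCm38), to which 39391 of 43344 distinct symbols matched exactly, 927 by synonym and 3026 not at all. Adgre1, Vsir and Lilrb4a are under older symbols in the table, and 1 listed gene was not analysed here. Some genes that the rule for names takes are not reported here. The 34 members and all lists were chosen with earlier results of these data known. Named genes are all members, Kdm5c, and from each further list the called genes or else the 3 with the smallest p; from the marker lists of other cells the text names called genes, and others it names were singled out after their values were seen. Alternatives were no scaling, upper quartile or median-ratio scaling, no filter, a filter of a mean of at least 5 CPM, limma-voom, DESeq2 1.42.0, a block for the replicate number, leaving out each mouse and other thresholds, and, chosen after seeing the data, offsets for GC content and length.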

Additional observations from a re-analysis of the deposited data

How the results depend on the processing

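Siglech, Fcrls and Olfml3 were the genes called, with none lower, under median-ratio, upper quartile and no scaling, a filter of at least 5 CPM (23 members tested), limma-voom, and GC and length offsets, which were chosen after seeing the data. With no filter 7 members were higher, beside 2.65% of 21087 tested genes, and with DESeq2 8, beside 3.97% of all tested genes. At an adjusted p under 0.01 by edgeR none was higher, beside 41 of 15127 genes. Under 0.1 there were 9, beside 857 of 15127. Leaving out each mouse in turn gave 0 to 10 higher members (10 without deficient mouse 1, 4 without deficient mouse 2, 0 in each other fit) and a median log2 fold change of 0.15 to 0.23, lowest without deficient mouse 2; the cause was not tested, and these fits hold fewer mice. The labels do not say whether the replicate numbers pair the mice. Deviations of same-numbered mice correlated at -0.06, -0.06 and 0.14, and those of differently numbered mice at -0.11 to 0.16. With 3 mice per genotype these values cannot show whether same-numbered mice share a batch. With the replicate number as a block 0 members were called, with 49 genes higher and 9 lower over all tested. With block and offsets together 1 member (Siglech) was called, with 82 and 28. Over all tested genes, 371 were higher and 375 lower; the counts were 558 and 563 with no filter, 601 and 612 with DESeq2, 41 and 3 at 0.01, 857 and 935 at 0.1, and 38 to 1101 higher and 6 to 997 lower when a mouse was left out. No called member changed sign. Cd14, near 0 in the main fit, turned to -0.000130 without scaling, -0.0352 with offsets and -0.0298 with offsets and block. S100a9, which has few reads, turned from -0.41 ± 0.85 (SE) in the main fit to 0.53 ± 1.26 (SE) with limma-voom. Leaving out a mouse moved the log2 fold change of Cx3cr1 between -0.015 and 0.10, P2ry12 between -0.36 and 0.055, Selplg between -0.016 and 0.11, Tyrobp between -0.0092 and 0.21, Fcer1g between -0.018 and 0.19, Lyz2 between -0.43 and 0.032, Cd14 between -0.068 and 0.11, Ly86 between -0.028 and 0.34, Mrc1 between -0.043 and 0.22, S100a9 between -1.32 and 0.013 and Ccr2 between -0.31 and 0.31. By edgeR, Apoe and Il34 lost their calls with offsets (adjusted p = 0.0581 and 0.0559), and Spp1 and C4b without scaling (0.0534 and 0.0594) and with the 5 CPM filter (0.0548 and 0.0524). With the block alone, Crybb1 and Cst3 were the called genes named in the report that passed. Members under 5 CPM have wide errors, with SEs of 0.15 to 0.41, so small differences in them were not detectable at this depth. The errors were widest for Irf8 (0.41) and P2ry12 (0.32), where only large differences were detectable.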
